A study of Mus musculus with 21 samples.

Results

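PMNs, labelled as neutrophils isolated from blood, and renal tubular epithelial cells (TECs) were compared 24 hours after ischemia-reperfusion injury (IRI) of both kidneys. All IRI libraries of the series were members: 5 libraries of PMNs and 5 libraries of TECs, 10 of the 21 libraries in all. Every mouse was wildtype, by the study's methods an adult male of the C57BL/6 strain, and in every one the vessels of both kidneys had been clamped for a time and released. Before clamping, the mice had received either remote ischemic preconditioning (RIPC, repeated inflation of a cuff on a hind limb) or a control procedure. The groups were PMN Control with 2 libraries, PMN RIPC with 3, TEC Control with 2 and TEC RIPC with 3. The labels gave the 2 PMN Control libraries as PMSs in their titles and as neutrophils under cell type. The 11 libraries of mice with sham surgery entered only the comparison of IRI with sham surgery. The study calls the libraries of a group biological replicates, but the labels name no mice, so p-values measure the spread between these libraries, which may be technical. The study's methods describe magnetic beads against prominin for tubular cells put into culture, without tying that step to the RNA libraries, and name no marker by which PMNs were sorted for RNA.

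Neutrophils are short-lived white blood cells that leave the blood for injured tissue, where they sense microbial and cell debris products, engulf them, and release proteases, oxidants and cytokines. They live largely on glycolysis and hold few mitochondria. The cells of the proximal tubule reabsorb most of the filtered solutes, draw their energy mainly from fatty acid oxidation in mitochondria and make glucose from lactate and other precursors. After ischemia, tubular cells that survive lose part of these functions and switch on injury genes such as Havcr1 (KIM-1), Krt20, Spp1 (osteopontin) and Sox9.

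Total estimated reads per library were between 25661853 and 30507235 in PMNs (median 29323480) and between 21479605 and 32090079 in TECs (median 28757951). Mitochondrial transcripts took 1.43% to 3.00% of the reads in PMNs and 13.1% to 23.9% in TECs. Levels below are normalized counts in CPM, which are reads scaled to a common library size with TMM factors. Levels of Cybb and Tlr5, which were left out of the main test, are plain CPM. These lack TMM factors and have mitochondrial reads in the total, so they are not on the same scale. Means are given ± SD over the 5 libraries of a cell type, and log2 differences are TEC minus PMN ± SE. PCR reads carried no molecular identifiers, so a limit based on read counts covers counting error only.

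The cell type labels were checked with marker lists. The summed level of 24 neutrophil markers was between 26252 and 49112 in PMNs (median 34652) and between 88.7 and 274.8 in TECs (median 175.5), so that the TEC median was 0.507% of the PMN median. Only 2 of the 24 had 0 reads in all 5 TEC libraries, Fpr1, a receptor for formylated peptides, and Camp, a granule peptide. The other markers had reads in at least 1 TEC library. In the neutrophil list 21 of 24 genes were called in favor of PMNs at an adjusted p-value under 0.05, where 2.42% of all genes were. Of the 21, 12 kept their call in all 10 fits with 1 library left out. Camp was called in 4 of these 10 fits (adjusted p up to 0.0826). Of the 18 proximal tubule markers 7 were higher in TECs, where 1.39% of all genes were, and 0 in PMNs. Of the 7, 2 kept their call in all 10 fits with 1 library left out, and without PMN Control 1 or PMN Control 2 only 2 were called. The summed level of the 18 was between 3184 and 10812 in TECs (median 4204) and between 646.8 and 1122 in PMNs (median 807.5). The PMN libraries thus held tubule transcripts at 15.4% to 26.7% of the TEC median, and none of the 18 markers was at 0 in all PMN libraries. For Kap, a kidney androgen-regulated protein made by proximal tubules, levels were 580.0, 324, 316, 571 and 348 in PMNs and 1501, 1671, 714, 2158 and 1394 in TECs. For distal tubule and collecting duct markers the summed levels overlapped, with 94.2 to 695.4 in PMNs and 297.6 to 748.1 in TECs.

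Transcripts of macrophages also lay in the PMN libraries. The summed level of 13 macrophage and monocyte markers was between 2298 and 4435 in PMNs and between 84.9 and 330.6 in TECs, and 7 of the 13 were higher in PMNs. Examples were C1qb, a chain of complement C1q (376 ± 169 in PMNs and 11.2 ± 6.25 in TECs, log2 -5.12 ± 0.72, adjusted p = 0.00558), and Apoe, a lipid carrier (1376 ± 406 in PMNs and 159 ± 94.4 in TECs, log2 -3.06 ± 0.50, adjusted p = 0.0115). The PMN libraries were labelled as blood, and whether cells or RNA from the kidney entered them was not tested. The tubule and macrophage transcripts in them differ between the cell types along with every gene given below, and their part in those differences was not tested. In bulk libraries, fewer cells of a type and less RNA per cell cannot be told apart.

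**Figure D1:**
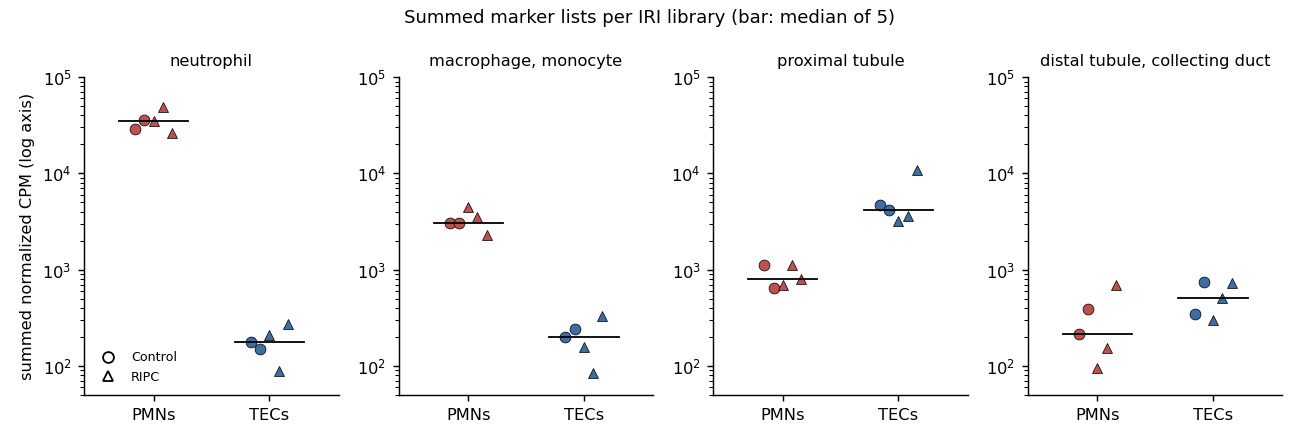
Summed normalized counts (CPM) of 4 marker lists in each IRI library, on a log axis, with PMNs in red and TECs in blue, circles for Control and triangles for RIPC, and a bar at the median of 5 libraries. Neutrophil and macrophage markers separated the cell types, proximal tubule markers were lower but present in PMNs (646.8 to 1122), and distal markers overlapped.

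The promoters of 6 genes of the chemokine, NF-κB and antioxidant lists are shown, so that genes with unlike calls can be set side by side. Cxcl2, Cxcl3 and Nfkbia were called higher in PMNs, Prdx1 and Srxn1 were called higher in TECs, and Cxcl1 was called in neither. They are RefSeq windows on GRCm38.p6 from 250 bases before to 50 bases after the annotated start, and in the order below they are chr5:90890995-90891294 (+ strand), chr5:90903649-90903948 (+ strand), chr5:90785851-90786150 (+ strand), chr12:55492598-55492897 (- strand), chr4:116685349-116685648 (+ strand) and chr2:152105274-152105573 (+ strand). Cxcl1, Cxcl2 and Cxcl3 are neighboring chemokine genes on chromosome 5, and Nfkbia codes for the NF-κB inhibitor IκBα. Capitals mark matches on either strand to GGG, any 2 bases and TTTCC, a form of the NF-κB motif.
Cxcl1: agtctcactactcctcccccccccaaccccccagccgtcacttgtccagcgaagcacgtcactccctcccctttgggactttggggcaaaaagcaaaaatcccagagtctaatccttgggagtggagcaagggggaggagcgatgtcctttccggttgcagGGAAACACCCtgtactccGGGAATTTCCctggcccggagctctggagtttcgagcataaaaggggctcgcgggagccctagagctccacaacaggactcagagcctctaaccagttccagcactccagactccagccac
Cxcl2: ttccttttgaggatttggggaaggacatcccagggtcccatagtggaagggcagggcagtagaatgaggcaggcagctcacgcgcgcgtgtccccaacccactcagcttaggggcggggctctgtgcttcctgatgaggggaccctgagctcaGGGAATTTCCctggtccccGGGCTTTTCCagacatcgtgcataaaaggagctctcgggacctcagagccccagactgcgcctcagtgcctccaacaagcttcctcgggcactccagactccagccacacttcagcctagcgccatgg
Cxcl3: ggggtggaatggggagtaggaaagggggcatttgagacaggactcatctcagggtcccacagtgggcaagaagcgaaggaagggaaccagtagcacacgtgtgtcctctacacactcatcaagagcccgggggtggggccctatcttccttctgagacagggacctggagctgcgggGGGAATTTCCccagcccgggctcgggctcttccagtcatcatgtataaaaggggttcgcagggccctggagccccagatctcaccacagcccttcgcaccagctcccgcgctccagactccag
Nfkbia: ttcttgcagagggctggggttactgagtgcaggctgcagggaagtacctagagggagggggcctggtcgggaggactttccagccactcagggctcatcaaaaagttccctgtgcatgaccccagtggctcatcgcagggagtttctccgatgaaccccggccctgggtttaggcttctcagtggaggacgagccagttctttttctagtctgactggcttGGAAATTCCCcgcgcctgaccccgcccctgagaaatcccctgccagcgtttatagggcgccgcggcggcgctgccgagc
Prdx1 (peroxiredoxin 1) and Srxn1 (sulfiredoxin) are antioxidant genes that were higher in TECs, and capitals mark matches to TGANTCA, a form of the AP-1 motif that also lies inside the longer antioxidant response element.
Prdx1: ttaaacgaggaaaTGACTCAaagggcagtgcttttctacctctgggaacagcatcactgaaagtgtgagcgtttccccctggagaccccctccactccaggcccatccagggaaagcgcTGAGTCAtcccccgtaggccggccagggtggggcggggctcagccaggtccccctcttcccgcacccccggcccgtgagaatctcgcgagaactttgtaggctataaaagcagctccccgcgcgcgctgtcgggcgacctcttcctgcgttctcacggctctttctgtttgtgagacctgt
Srxn1: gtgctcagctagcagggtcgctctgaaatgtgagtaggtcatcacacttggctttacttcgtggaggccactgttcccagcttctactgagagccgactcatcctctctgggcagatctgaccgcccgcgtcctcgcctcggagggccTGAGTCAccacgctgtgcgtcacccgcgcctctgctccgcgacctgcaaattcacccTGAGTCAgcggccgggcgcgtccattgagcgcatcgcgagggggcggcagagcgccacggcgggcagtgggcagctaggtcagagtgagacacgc

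The NF-κB letters were in 535 of 32851 windows of this length (1.63%) and the AP-1 letters in 2565 (7.81%). Of the chemokine genes with a window, 5 of 16 held the NF-κB letters (Ccl9, Ccl20, Cxcl1, Cxcl2 and Cxcl3), and of the genes of NF-κB subunits and inhibitors 4 of 11 did (Nfkb2, Nfkbia, Rel and Tnfaip3). Of the antioxidant genes 4 of 19 held the AP-1 letters (Gstp1, Mt2, Prdx1 and Srxn1). The 2 motifs and the 6 genes were chosen after the levels had been seen, and a match describes letters only, not binding. Cxcl1, Cxcl2 and Cxcl3 all hold the stretch GGGAATTTCC, while of the 3 only Cxcl2 and Cxcl3 were called, as given next.

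Cxcl2 (chr5:90903871-90905938 on GRCm38) codes for a chemokine that draws neutrophils. Its normalized count was 3169.9, 4483, 3763, 5868 and 5093 in PMNs and 15.1, 13.4, 33.6, 6.62 and 3.74 in TECs, in the order Control 1, Control 2, RIPC 1, RIPC 2 and RIPC 3 that is kept below. The lowest PMN library stood far above the highest TEC library, and the mean was 309-fold higher in PMNs (log2 -8.23 ± 0.78, adjusted p = 0.000823). Acod1 (chr14:103046977-103056573), whose enzyme makes itaconate in activated myeloid cells, had 1150.2, 1552, 2485, 2599.7 and 2221 in PMNs. In TECs it had 0, 0.0889, 2.83, 0.0803 and 0, so that TEC RIPC 1 alone was above 0.1 (log2 -13.03 ± 1.77, adjusted p = 0.00475). Cxcl3 had 638, 802, 667, 1157 and 642 in PMNs and 1.19, 3.42, 16.4, 12.3 and 0.222 in TECs (log2 -7.35 ± 1.12, adjusted p = 0.00803), again without overlap. Cxcl1, by contrast, had 41.5, 45.3, 69.8, 166 and 55.4 in PMNs and 46.7, 67, 33, 49.6 and 54.9 in TECs. The cell types overlapped in Cxcl1 and it was not called (log2 -0.35 ± 0.42, adjusted p = 0.762). Cxcl2, Acod1 and Cxcl3 were called with each library left out in turn. Per length, the mean level of Cxcl2 was 3129.5 TPM in PMNs and 7.96 TPM in TECs.

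The 3 injury markers pointed the other way but did not pass the threshold. Krt20 (chr11:99428403-99438150), a keratin of injured tubules, had 968, 924, 1282, 362 and 1405 in TECs and 0.621, 29.7, 102, 0.457 and 1.22 in PMNs. All TEC libraries were above all PMN libraries, yet PMN RIPC 1 and PMN Control 2 held many more reads than the other PMN libraries (log2 5.42 ± 1.69, adjusted p = 0.144). Havcr1 (chr11:46735080-46779578), the phagocytic receptor KIM-1, had 709, 570.5, 372, 469 and 75.6 in TECs and 0.248, 21.9, 6.67, 26.1 and 0.431 in PMNs, also without overlap (log2 5.32 ± 1.42, adjusted p = 0.0859). Spp1 (chr5:104435118-104441050) had 11142, 13967, 7629.8, 14039.5 and 2539 in TECs and 602, 5594, 960.4, 1517 and 1853 in PMNs, where PMN Control 2 was above TEC RIPC 3 (log2 2.25 ± 0.64, adjusted p = 0.106). Each was called in 1 of 10 fits with a library left out, Krt20 without PMN RIPC 1 (adjusted p = 0.0168), Havcr1 without PMN Control 2 (adjusted p = 0.0453) and Spp1 without PMN Control 2 (adjusted p = 0.019). The Wald test of DESeq2 called all 3, with adjusted p = 0.000492, 9e-05 and 0.0174 in that order. Per length, Spp1 averaged 3907 TPM in TECs and 1052 TPM in PMNs, so that it was abundant in both.

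**Figure D2:**
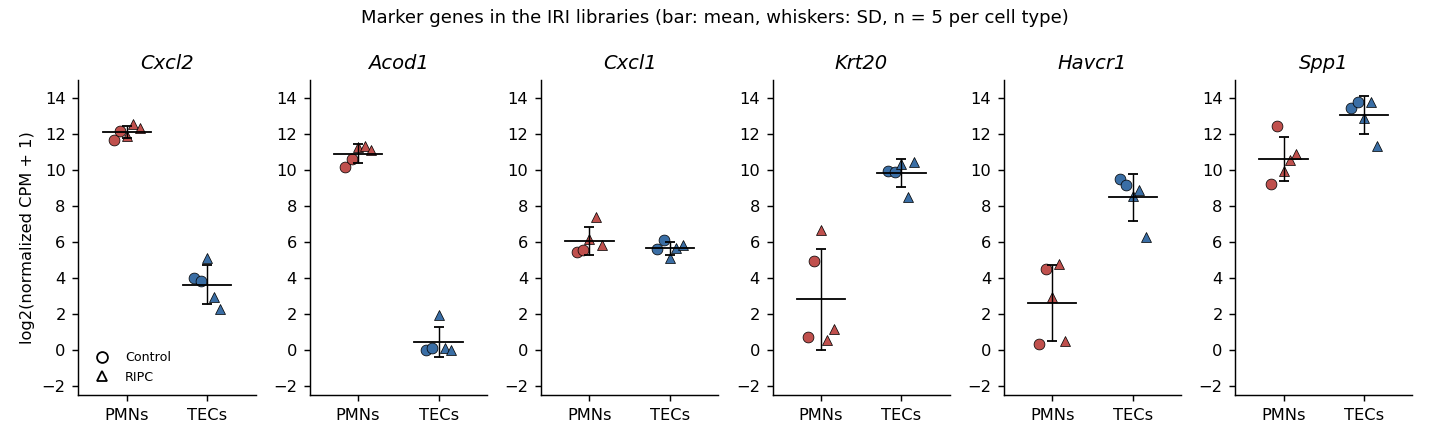
Levels of 6 genes in the 10 IRI libraries as log2 of normalized CPM plus 1, with circles for Control, triangles for RIPC, a bar at the mean and whiskers of 1 SD (n = 5). Cxcl2 and Acod1 were high in all PMN libraries and low in all TEC libraries, Cxcl1 overlapped, and the PMN libraries spread most in Krt20, Havcr1 and Spp1.

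Of 26082 genes tested with edgeR's quasi-likelihood F test, 993 (3.81%) were called at an adjusted p-value under 0.05. Of these, 363 were higher in TECs (1.39% of genes tested) and 630 in PMNs (2.42%). An unadjusted p-value under 0.05 was reached by 4451 genes (17.1%), and edgeR's common coefficient of variation was 1.54. All TEC libraries were above all PMN libraries for 929 genes (3.56%) and below them for 1235 (4.74%), together 8.30% of genes, and 918 of the 993 called genes were among these. The count of calls rested on single libraries: it was 575 without PMN Control 1, 577 without TEC Control 2, 609 without TEC Control 1 and 613 without PMN Control 2. Without any other library it was between 751 and 1031. Scaling by total counts moved the median log2 difference of all genes from 0.106 to 0.361 and called 473 genes higher in TECs and 583 in PMNs.

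The 5 genes with the smallest adjusted p-values in favor of PMNs were Ctss (cathepsin S, a lysosomal protease), Cd14 (a co-receptor for bacterial lipopolysaccharide), F13a1 (coagulation factor XIII), Rac2 (a GTPase of blood cells) and Hdc (histidine decarboxylase, which makes histamine). Hdc averaged 3091 ± 530.4 in PMNs and 14.2 ± 6.45 in TECs (log2 -7.71 ± 0.45, adjusted p = 0.00013). F13a1, which monocytes and platelets also make, averaged 503 ± 120.2 in PMNs and 2.72 ± 1.48 in TECs (log2 -7.89 ± 0.43, adjusted p = 0.00013). In favor of TECs they were Acot2 (a mitochondrial acyl-CoA thioesterase), Gm29216, Cyb5a (cytochrome b5), Ndrg1 (a gene of the hypoxia response) and Sox9. Ndrg1 averaged 2485 ± 759 in TECs and 168 ± 46.7 in PMNs (log2 3.88 ± 0.35, adjusted p = 0.000688). Cyb5a averaged 766 ± 217 in TECs and 93.7 ± 11.2 in PMNs (log2 3.06 ± 0.25, adjusted p = 0.000453). Gm29216 shares 97.1% of its 50-base stretches with mt-Co1 of the mitochondrial genome and Acot2 27.7% with Acot1 and other genes, so that reads of these cannot be told apart. Cd14, Rac2 and Sox9 were called with each library left out in turn, but Sox9 was not called with cell type as the only term in edgeR (adjusted p = 0.122). The other top genes were not followed over the fits with a library left out.

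**Figure D3:**
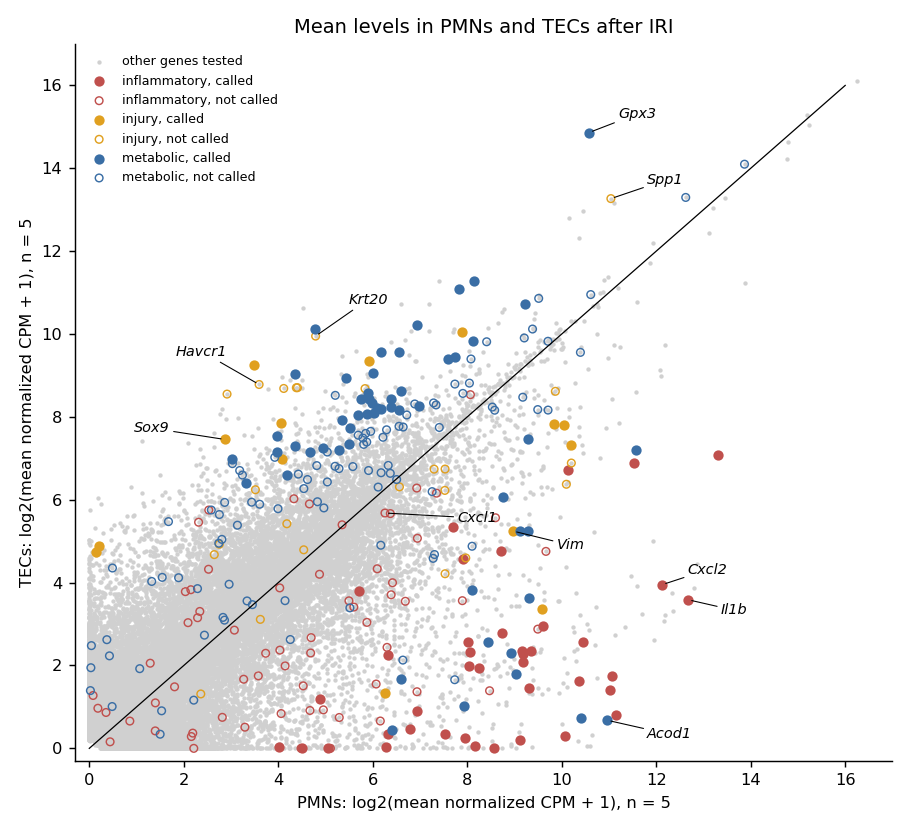
Mean levels of all tested genes in TECs against PMNs after IRI, as log2 of the mean normalized CPM plus 1 over 5 libraries, with equality drawn as a line and inflammatory, injury and metabolic list members in color (filled where called). Called inflammatory genes lie below the line and called metabolic genes on both sides of it, with Gpx3 highest among those of TECs.

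The lists of genes read for each role were grouped as inflammatory, injury and metabolic. Every list count below stands beside a share over all genes tested of 1.39% higher in TECs and 2.42% higher in PMNs. Of 112 tested inflammatory genes, 47 (42.0%) were higher in PMNs and 0 in TECs, with a median fitted log2 difference of -4.78 against 0.106 over all genes tested. Of 39 tested injury genes, 8 (20.5%) were higher in TECs and 6 (15.4%) in PMNs. Of 152 tested metabolic genes, 41 (27.0%) were higher in TECs and 15 (9.87%) in PMNs, with a median of 1.49. These lists share members with the cell type marker lists. Csf3r, Cxcr2, Il1r2, Fpr1 and Trem1 are also neutrophil markers and Miox is also a proximal tubule marker, so their calls restate the cell types.

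**Figure D4:**
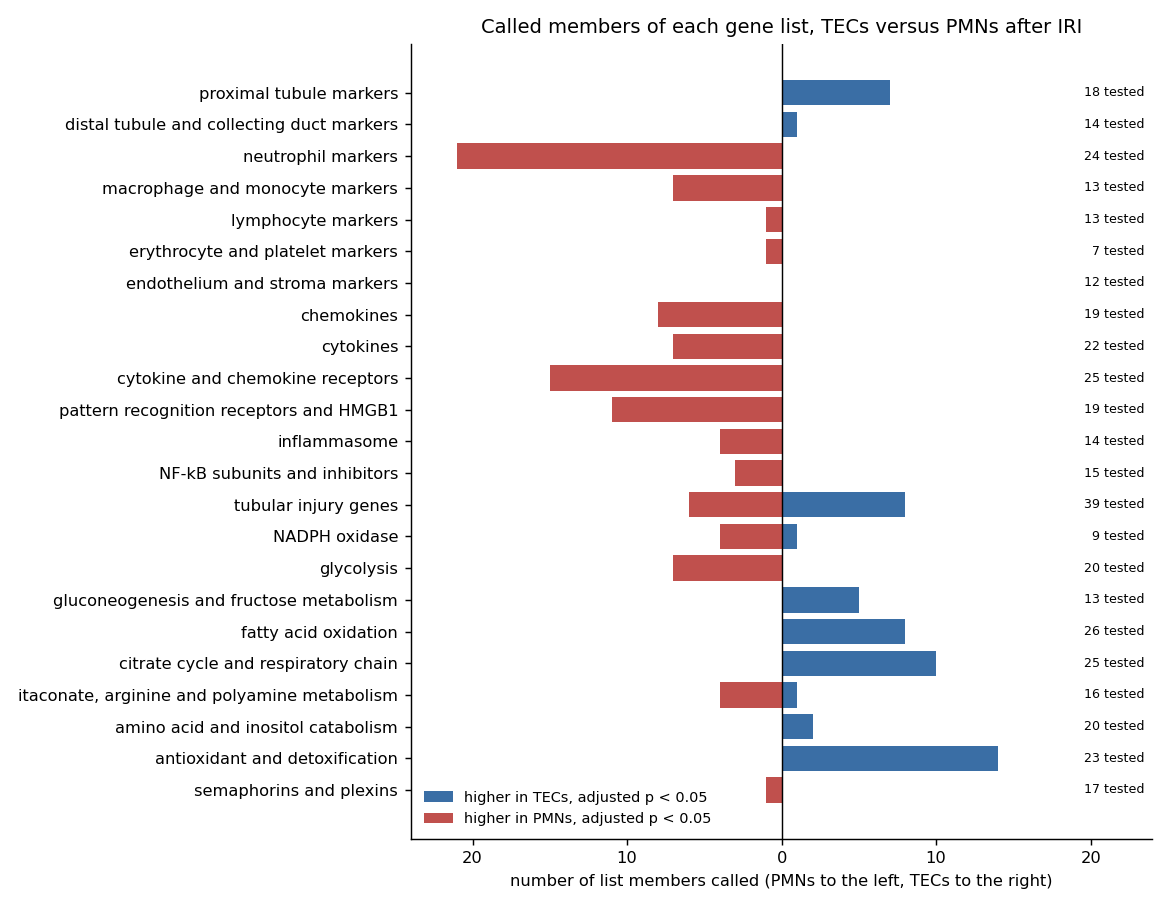
Number of called members (adjusted p under 0.05) in each gene list, to the right where higher in TECs and to the left where higher in PMNs, with the number tested at the edge. The 6 inflammatory lists have bars to the left only, while fatty acid oxidation, the citrate cycle and respiratory chain, gluconeogenesis, amino acid catabolism and the antioxidant genes have bars to the right only.

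Chemokines, the secreted ligands that guide white blood cells, were measured for 19 of 22 list members, and 8 of them were higher in PMNs. Among the CC chemokines, which mainly draw monocytes and macrophages, Ccl6 had 1802, 1982, 1824, 3468 and 1352 in PMNs and 0.277, 7.78, 0, 0.0803 and 0.222 in TECs (log2 -11.64 ± 1.35, adjusted p = 0.00218). Ccl9 had 553, 781, 465, 655 and 423 in PMNs and 0.474, 13.9, 1.2, 3.05 and 0.534 in TECs (log2 -7.43 ± 1.06, adjusted p = 0.00576). In both, TEC Control 2 was the highest TEC library and still far under the lowest PMN library. Ccl3 averaged 576 ± 252 in PMNs and 3.21 ± 4.68 in TECs (log2 -9.64 ± 1.43, adjusted p = 0.00681), and Ccl4, at 0 in both TEC Control libraries, averaged 573 ± 259 in PMNs and 4.08 ± 5.35 in TECs (adjusted p = 0.000383). Ccl2, the main ligand for monocytes, averaged 121 ± 56.5 in PMNs and 0.869 ± 1.94 in TECs and lost its call without PMN RIPC 1 or PMN RIPC 2 (adjusted p up to 0.0575). Ccl7 had 0 reads in all TECs and an average of 21.4 ± 20.2 in PMNs but was not called (adjusted p = 0.0523), except without PMN RIPC 1 (adjusted p = 0.0339). Of chemokines that did not pass, Cx3cl1 was on the side of TECs, with 4.75 ± 6.4 in PMNs and 19 ± 28.3 in TECs (adjusted p = 0.251), and Cxcl16 averaged 122 ± 86.4 in PMNs and 32.6 ± 31 in TECs (adjusted p = 0.396). The median log2 difference over its tested members was -6.91 in the fit and -3.15 as a ratio of means with genes at 0 set to 3 reads, against 0.106 and 0.117 over all genes tested. Cxcl2, Cxcl3, Ccl3, Ccl4, Ccl6 and Ccl9 were called with each library left out.

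Of cytokines, 22 of 23 were tested and 7 were higher in PMNs. Tnf, a master cytokine of inflammation, had 270.3, 170.5, 652, 375 and 411 in PMNs and 0 reads in all TEC libraries, which puts PMNs at least 3059.5-fold higher (adjusted p = 0.000394). Il1b (interleukin-1β) had 3564, 5791, 4781, 7883 and 10715 in PMNs and 0.158, 28.7, 11.5, 14.5 and 0.222 in TECs (log2 -9.07 ± 1.67, adjusted p = 0.0194). TEC Control 2, TEC RIPC 1 and TEC RIPC 2 held most of the few TEC reads of Il1b. Osm (oncostatin M, of the interleukin-6 family) had 869, 1071, 721, 1962 and 762 in PMNs and 0 to 1.12 in TECs (log2 -13.38 ± 1.78, adjusted p = 0.00435). Il23a, a subunit of interleukin-23, averaged 21.6 ± 16.9 in PMNs with 0 reads in TECs, at least 176-fold higher in PMNs (adjusted p = 0.0165). Il12a was also at 0 in TECs and at least 263-fold higher in PMNs (adjusted p = 0.0355), but its call was lost without PMN Control 2, PMN RIPC 1, PMN RIPC 3, TEC Control 1 or TEC Control 2 (adjusted p up to 0.0796). Il1a averaged 259 ± 110.2 in PMNs and 4.92 ± 10.8 in TECs (adjusted p = 0.0471) and was called in 3 of 10 fits with a library left out, not without PMN Control 1, PMN Control 2, PMN RIPC 1, PMN RIPC 2, PMN RIPC 3, TEC Control 1 or TEC Control 2 (adjusted p up to 0.138). Il1rn, which codes for the interleukin-1 receptor antagonist, averaged 719.9 ± 249 in PMNs and 6.35 ± 12.2 in TECs without overlap and did not pass (adjusted p = 0.0505), except without TEC Control 2, TEC RIPC 2 or TEC RIPC 3 (adjusted p down to 0.0114). On the side of TECs without overlap was 1 cytokine, Il34, a ligand of the macrophage growth factor receptor, with 4.77 ± 7.12 in PMNs and 52.9 ± 26.5 in TECs (adjusted p = 0.398). Tnf, Il1b, Osm and Il23a kept their calls in all 10 fits. The median log2 difference over its tested members was -6.84 in the fit and -4.58 as a ratio of means.

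Of the receptors for cytokines and chemokines, 15 of 25 tested were higher in PMNs and 0 in TECs, and the median log2 difference was -5.63 in the fit and -5.34 as a ratio of means. Cxcr2, the receptor for Cxcl1 and Cxcl2 on neutrophils, had 654, 858, 527, 728 and 843 in PMNs and 23.8, 16.5, 35.6, 45.1 and 24.5 in TECs (log2 -4.77 ± 0.34, adjusted p = 0.000274). It was low but not absent in TECs, where each library had at least 16.5. Csf3r, the receptor of the neutrophil growth factor G-CSF, averaged 746 ± 408 in PMNs and 4.02 ± 1.48 in TECs (log2 -7.60 ± 0.58, adjusted p = 0.000357). Ccrl2, a receptor that binds chemerin, averaged 2253 ± 807 in PMNs and 0.749 ± 1.5 in TECs (log2 -12.61 ± 1.14, adjusted p = 0.000688), and Tnfrsf1b, a receptor for TNF, 557 ± 117 in PMNs and 0.152 ± 0.212 in TECs (log2 -11.80 ± 1.39, adjusted p = 0.00243). These 4 and Csf2ra (log2 -6.80 ± 0.72, adjusted p = 0.00137) were called with each library left out, as were 9 receptors in all. Il1r2, a decoy receptor for interleukin-1, averaged 7162 ± 1192 in PMNs and 13.6 ± 24 in TECs (log2 -9.38 ± 2.11, adjusted p = 0.0443), but it lost its call without PMN Control 1, PMN Control 2, PMN RIPC 1, PMN RIPC 2, PMN RIPC 3 or TEC Control 2 (adjusted p up to 0.0973). Osmr, the receptor for oncostatin M, was higher in TECs on average but overlapped, with 3.97 ± 5.51 in PMNs and 42.9 ± 46.5 in TECs (adjusted p = 0.321).

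Pattern recognition receptors sense microbial products and molecules such as HMGB1 from damaged cells. Of this list 19 of 21 were tested and 11 were higher in PMNs, with a median log2 difference of -6.91 in the fit and -6.24 as a ratio of means. Cd14 had 7885, 9962, 9974, 11354 and 11429 in PMNs and 169.8, 178, 163, 73.7 and 86.2 in TECs (log2 -6.17 ± 0.32, adjusted p = 0.000124), without overlap. Tlr4, the receptor of lipopolysaccharide and HMGB1, had 34.8, 105, 114, 62.9 and 79.1 in PMNs and 0.118, 0, 11.5, 2.05 and 5.34 in TECs (log2 -6.91 ± 0.97, adjusted p = 0.00549). In TECs the Tlr4 reads came mostly from TEC RIPC 1 and TEC RIPC 3. Trem1, an amplifier of such signals, had 1320.0 to 1759.8 in PMNs and at most 0.133 in TECs (adjusted p = 0.000201). Clec7a (dectin-1, a receptor for fungal glucans) averaged 287 ± 66.3 in PMNs and 0.0383 ± 0.0379 in TECs (log2 -12.60 ± 0.93, adjusted p = 0.000314), and Tlr6 averaged 76.7 ± 29.3 in PMNs and 0.0249 ± 0.0364 in TECs (log2 -11.34 ± 1.24, adjusted p = 0.00157). Fpr1 was at least 3454-fold higher in PMNs. Tlr2, which was at 0 in TEC Control, averaged 633 ± 219 in PMNs and 1.76 ± 3.94 in TECs (adjusted p = 0.0355) and lost its call without PMN RIPC 1, PMN RIPC 2, PMN RIPC 3, TEC Control 1 or TEC Control 2 (adjusted p up to 0.107). The adaptor Myd88 averaged 207 ± 18.6 in PMNs and 39.8 ± 36.5 in TECs (log2 -2.41 ± 0.46, adjusted p = 0.0224) and lost it without PMN Control 1, PMN Control 2 or TEC Control 1 (adjusted p up to 0.0785). Cd14, Tlr4, Trem1, Clec7a, Tlr6 and Fpr1 kept their calls with each library left out. With cell type as the only term in edgeR, Tlr4 was not called (adjusted p = 0.107). Hmgb1 itself, a chromatin protein of all nucleated cells, had 213, 298, 303, 213 and 309 in PMNs and 526, 378, 325, 279 and 345 in TECs, and the cell types overlapped (log2 0.51 ± 0.25, adjusted p = 0.327), while 20.4% of its 50-base stretches also lie in other genes.

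The inflammasome cleaves the precursor of interleukin-1β, and 4 of its 14 tested genes, with Il1b among them, were higher in PMNs, where 2.42% of all genes were. Mefv (pyrin) averaged 185 ± 64.3 in PMNs and 0.263 ± 0.504 in TECs (adjusted p = 0.00166) and the adaptor Pycard (ASC) 109 ± 21.6 in PMNs and 0.383 ± 0.675 in TECs (adjusted p = 0.00799), both called in all 10 fits with a library left out. Nlrp3 averaged 79 ± 40.2 in PMNs and 0.275 ± 0.616 in TECs (adjusted p = 0.029) and lost its call without PMN RIPC 1, PMN RIPC 2, PMN RIPC 3, TEC Control 1 or TEC Control 2 (adjusted p up to 0.0869). Casp1, the protease of the complex, had 0 reads in TECs and 25, 0, 55.7, 25.6 and 60.6 in PMNs, where PMN libraries spread widely and it did not pass (adjusted p = 0.073). Nek7, an activator of NLRP3, was on the side of TECs with 19.1 ± 15.4 in PMNs and 64.1 ± 26.7 in TECs (adjusted p = 0.158).

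Of 15 genes in the list of NF-κB subunits and inhibitors, 3 were higher in PMNs, and these were genes of the IκB family. Nfkbia had 2004, 2694, 2791, 3104 and 4285 in PMNs and 130.5, 75.9, 203, 35.4 and 139 in TECs (log2 -4.63 ± 0.52, adjusted p = 0.00172). Nfkbiz (IκBζ) had 634, 1222, 1025, 1154 and 1547 in PMNs and 71, 131, 85.2, 33 and 198 in TECs (log2 -3.38 ± 0.53, adjusted p = 0.00889), and both kept their calls with each library left out. Nfkbid averaged 428 ± 160.1 in PMNs and 5.92 ± 8.12 in TECs (adjusted p = 0.02) and lost its call without TEC Control 1 or TEC Control 2 (adjusted p up to 0.0576). Tnfaip3 (A20), an inhibitor of NF-κB signaling, averaged 811 ± 332 in PMNs and 26 ± 22.1 in TECs without overlap but did not pass (adjusted p = 0.0981), except without TEC RIPC 2 (adjusted p = 0.00551). The subunit genes Nfkb1 (67.3 ± 35.2 in PMNs and 19.2 ± 7.69 in TECs, adjusted p = 0.139) and Nfkb2 (84.5 ± 46.8 in PMNs and 15 ± 18.5 in TECs, adjusted p = 0.0774) also missed the threshold. The median fitted log2 difference over the 15 was -2.82 against 0.106 over all genes tested.

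Injury genes split between the cell types. Of 39 tested, 8 were higher in TECs, 6 in PMNs and 25 did not pass. Sox9, a transcription factor of repairing tubules, had 107, 128, 112, 155 and 371 in TECs and 0, 0, 11.8, 5.49 and 14.1 in PMNs, with 0 reads in both PMN Control libraries (adjusted p = 0.000688). Myc, a transcription factor of growth, had 170.3, 187, 252, 156 and 376 in TECs and 22.7, 15.6, 9.49, 15.8 and 14.6 in PMNs (log2 3.76 ± 0.39, adjusted p = 0.00119). In both genes the lowest TEC library was well above the highest PMN library. S100a10, a calcium-binding partner of annexin A2, averaged 238 ± 60 in PMNs and 1062 ± 325 in TECs (log2 2.17 ± 0.26, adjusted p = 0.00265). Fgg, the fibrinogen γ chain, averaged 10.2 ± 17.2 in PMNs and 609 ± 412 in TECs (log2 8.62 ± 1.36, adjusted p = 0.00936), although 1 PMN library reached 39.8 and the cell types overlapped. Cp (ceruloplasmin) and Mdk (midkine) were nearly absent from PMNs, with 0.153 ± 0.156 in PMNs and 28.7 ± 22.6 in TECs (log2 7.67 ± 1.40, adjusted p = 0.019) and 0.0986 ± 0.179 in PMNs and 25.6 ± 14.6 in TECs (log2 8.31 ± 1.66, adjusted p = 0.0276). Krt8, a keratin of simple epithelia, averaged 59.2 ± 52.1 in PMNs and 655 ± 308 in TECs (log2 3.42 ± 0.69, adjusted p = 0.0292) and shares 26.9% of its stretches with other genes. Sox9, Myc, S100a10 and Fgg were called with each library left out, while calls were lost for Cp without PMN Control 1 or PMN Control 2 (adjusted p up to 0.0992), for Mdk without PMN Control 1, TEC Control 2 or TEC RIPC 3 (adjusted p up to 0.0786) and for Krt8 without PMN Control 1, PMN RIPC 1, PMN RIPC 2, TEC Control 1 or TEC RIPC 3 (adjusted p up to 0.0879). With cell type as the only term in edgeR, Sox9 (adjusted p = 0.122) and Fgg (adjusted p = 0.135) were not called. Myc was not called in the fit of all 21 libraries (adjusted p = 0.18).

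Igfbp7, a urinary marker of kidney stress and cell cycle arrest, had 248, 97.9, 85, 48.7 and 153 in TECs and 9.19, 16.3, 22.5, 16.4 and 15.5 in PMNs (log2 3.08 ± 0.50, adjusted p = 0.0106), and lost its call without PMN Control 1 (adjusted p = 0.0774). The partner marker Timp2 had 18.6, 0.267, 19.3, 0.0401 and 0 in TECs and 9.15, 1.73, 0.954, 29.3 and 15.4 in PMNs (log2 -0.22 ± 1.85, adjusted p = 1), and the libraries of both cell types ranged widely. Cdkn1a (p21, a brake on the cell cycle) averaged 932 ± 263 in PMNs and 392 ± 139 in TECs without overlap and did not pass (log2 -1.18 ± 0.33, adjusted p = 0.106).

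The 6 injury genes higher in PMNs were Vim, S100a11, Cd44, Vcam1, Anxa2 and Plaur. Vim (vimentin), which tubules gain when they dedifferentiate, had 391, 682, 574, 391 and 468 in PMNs and 48, 55.5, 36.9, 28.1 and 15.9 in TECs (log2 -3.76 ± 0.36, adjusted p = 0.000864). Cd44, a hyaluronan receptor, had 631, 875, 841, 749 and 751 in PMNs and 0.79, 0, 34.5, 0.923 and 10 in TECs, where TEC RIPC 1 stood above the rest (log2 -8.28 ± 1.36, adjusted p = 0.0116). S100a11 averaged 1058 ± 198 in PMNs and 221 ± 74.8 in TECs (log2 -2.22 ± 0.32, adjusted p = 0.00649) and shares 41.1% of its stretches with other genes. Vcam1, an adhesion molecule, averaged 76.1 ± 57.6 in PMNs and 1.54 ± 2.04 in TECs (log2 -6.08 ± 1.00, adjusted p = 0.0118). Vim, Cd44 and S100a11 were called with each library left out. Calls were lost for Vcam1 without TEC Control 1 or TEC Control 2 (adjusted p up to 0.0664), for Anxa2 without TEC Control 2 (adjusted p = 0.0664) and for Plaur, the urokinase receptor, without PMN Control 2, PMN RIPC 1, PMN RIPC 2, PMN RIPC 3, TEC Control 1, TEC Control 2 or TEC RIPC 1 (adjusted p up to 0.121). Lcn2 (NGAL), a urinary marker of acute kidney injury that neutrophils also store, averaged 1095 ± 424 in PMNs and 81.9 ± 84.4 in TECs without overlap and was not called (adjusted p = 0.133), except without TEC RIPC 3 (adjusted p = 0.0178).

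The NADPH oxidase makes the oxidative burst of phagocytes. The PMNs were higher in 4 of 9 tested genes, where they were in 2.42% of all genes. Among the 4 were the cytosolic subunits Ncf1 and Ncf4 and the GTPase Rac2. Rac2 had 521, 566, 539, 723 and 269.9 in PMNs and 1.66, 1.33, 3.15, 3.53 and 2.58 in TECs (log2 -7.93 ± 0.45, adjusted p = 0.00013). Ncf1 (p47phox) averaged 485 ± 211 in PMNs and 3.96 ± 8.35 in TECs (log2 -8.09 ± 1.55, adjusted p = 0.0231), and Ncf4 averaged 242 ± 53.1 in PMNs and 1.04 ± 2.24 in TECs (adjusted p = 0.0134). Rac2, Ncf1 and Ncf4 kept their calls in all 10 fits. The membrane subunit Cyba averaged 577 ± 148 in PMNs and 355 ± 101 in TECs and did not pass (adjusted p = 0.306). Its partner Cybb is on the X chromosome and so was left out of the main test. In plain CPM, Cybb had 134, 191, 347, 173 and 236 in PMNs and 5.67, 0.279, 4.04, 0.979 and 6.4 in TECs. The fit with sex-chromosome genes included gave it a log2 of -5.84 ± 1.01 (adjusted p = 0.0146). TECs were higher in Nox4, the oxidase of the kidney, with 44.4 ± 4.24 in PMNs and 161 ± 89.4 in TECs (log2 1.75 ± 0.38, adjusted p = 0.0396), which lost its call without PMN Control 1, PMN Control 2, PMN RIPC 1, PMN RIPC 2, PMN RIPC 3, TEC Control 1 or TEC Control 2 (adjusted p up to 0.201).

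Glycolysis turns glucose into pyruvate and lactate. Of 20 tested genes, 7 were higher in PMNs and 0 in TECs, with a median log2 difference of -2.60 against 0.106 over all genes tested. The 7 were Slc16a3, Pkm, Pfkfb3, Pfkfb4, Slc2a1, Slc2a3 and Gpi1. Slc16a3 (MCT4), which exports lactate, had 981, 1354, 1446, 1707 and 1287 in PMNs and 0.0395, 2.27, 0.435, 0.0803 and 0.534 in TECs (log2 -11.01 ± 1.20, adjusted p = 0.00157). Pkm, the pyruvate kinase of most tissues outside the liver, had 2097, 3202, 3389.9, 2928 and 3650.1 in PMNs and 150.2, 288, 93.5, 148 and 49.3 in TECs (log2 -4.35 ± 0.39, adjusted p = 0.000688), and 25.8% of its stretches lie in other genes too. Pfkfb3, whose enzyme makes an activator of phosphofructokinase, had 288, 346, 359.5, 327 and 404 in PMNs and 9.52, 2.71, 2.43, 5.58 and 4.31 in TECs (log2 -6.08 ± 0.52, adjusted p = 0.000505). The glucose transporter gene Slc2a3 (GLUT3) averaged 272 ± 103 in PMNs and 13.1 ± 9.54 in TECs (log2 -4.36 ± 0.67, adjusted p = 0.00799) and Slc2a1 (GLUT1) averaged 432 ± 62.4 in PMNs and 65.7 ± 39.9 in TECs (log2 -2.67 ± 0.48, adjusted p = 0.0178). Slc16a3, Pkm, Pfkfb3 and Slc2a3 kept their calls, and calls were lost for Gpi1 without TEC Control 2 (adjusted p = 0.0645), for Slc2a1 without TEC Control 1 or TEC Control 2 (adjusted p up to 0.0844) and for Pfkfb4 without PMN Control 1, PMN RIPC 1, PMN RIPC 2 or PMN RIPC 3 (adjusted p up to 0.0595). All PMN libraries lay above all TEC libraries for 11 of the 20, where 4.74% of all genes tested did so. These were the 7 called and 4 enzyme genes that did not pass. The 4 were the hexokinase genes Hk1 (adjusted p = 0.351) and Hk3 (adjusted p = 0.127, called without TEC Control 2 (adjusted p = 0.0177)) and the phosphofructokinase genes Pfkl (adjusted p = 0.408) and Pfkp (adjusted p = 0.271, called without TEC RIPC 2 (adjusted p = 0.0375)), all named after their values were seen. Of enzymes whose levels overlapped and that did not pass, Aldoa averaged 590.0 ± 184 in PMNs and 958 ± 269 in TECs (adjusted p = 0.277), Gapdh 1566 ± 306 in PMNs and 1980.0 ± 835 in TECs (adjusted p = 0.512) and Eno1 1346 ± 149.5 in PMNs and 752 ± 312 in TECs (adjusted p = 0.21), of which Gapdh and Eno1 share over 20% of their stretches with other genes.

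Gluconeogenesis and fructose metabolism, tasks of the proximal tubule, had 5 of 13 tested genes higher in TECs, 0 in PMNs and a median of 2.82. Ldhb, the lactate dehydrogenase subunit that favors pyruvate, had 1459.9, 1223, 829.5, 705 and 1726 in TECs and 112, 144, 70.6, 156 and 125 in PMNs (log2 3.30 ± 0.38, adjusted p = 0.00188). Pck1, the first committed enzyme of gluconeogenesis, had 575, 184, 258, 356 and 351 in TECs and 33.2, 45.6, 39.3, 104 and 41.9 in PMNs (log2 2.82 ± 0.46, adjusted p = 0.0112). Fbp1 (fructose-1,6-bisphosphatase) had 525, 414, 331, 258 and 1145 in TECs and 99.9, 38.1, 42.6, 54.4 and 82.4 in PMNs (log2 3.02 ± 0.54, adjusted p = 0.0167). In these 3 genes no PMN library reached the lowest TEC library. Sord (sorbitol dehydrogenase) averaged 42.1 ± 21.4 in PMNs and 492 ± 338 in TECs (log2 3.45 ± 0.56, adjusted p = 0.0107). Ldhb and Sord were called in all 10 fits with a library left out, though each shares over 20% of its stretches with other genes. Calls were lost for Pck1 without PMN Control 1 (adjusted p = 0.0734) and for Fbp1 without PMN Control 2 (adjusted p = 0.0667).

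Of the fatty acid oxidation genes, all 26 tested had fitted differences above 0 with TMM scaling, with a median log2 difference of 2.05 against 0.106 over all genes tested, and 8 of them passed. Acaa1b, a peroxisomal thiolase, had 1298, 514, 737, 749 and 497 in TECs and 44.6, 63.3, 27.7, 163 and 55.2 in PMNs (log2 3.54 ± 0.56, adjusted p = 0.00935), with 30.5% of its stretches shared with Acaa1a. Decr1, needed for unsaturated fatty acids, had 206, 168, 57.2, 100.3 and 95.3 in TECs and 1.53, 7.78, 2.03, 12.9 and 11.2 in PMNs (log2 4.30 ± 0.71, adjusted p = 0.0121). Acads and Acadl, the dehydrogenases for short and long chains, averaged 8.91 ± 3.29 in PMNs and 83.5 ± 41.4 in TECs (log2 3.41 ± 0.50, adjusted p = 0.00653) and 57.8 ± 21.1 in PMNs and 267 ± 58.5 in TECs (log2 2.25 ± 0.39, adjusted p = 0.0149). Ehhadh, a peroxisomal enzyme, had 1668, 775, 1178, 894 and 1046 in TECs and 23.6, 15.7, 67, 26.5 and 0.0784 in PMNs (log2 5.51 ± 1.28, adjusted p = 0.0497). It was called in 1 of 10 fits with a library left out (adjusted p up to 0.196). The carnitine transferase Cpt1a, which controls entry into mitochondria, averaged 71.4 ± 27.1 in PMNs and 99.6 ± 28 in TECs and overlapped (adjusted p = 0.523), and Ppara, the transcription factor of the pathway, averaged 0.405 ± 0.402 in PMNs and 19.4 ± 11.7 in TECs without overlap (adjusted p = 0.11). None of the 8 calls held in every fit: all were lost without PMN Control 1, where the highest of their adjusted p-values was 0.2, and between 0 and 7 were kept over the 10 fits.

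The citrate cycle and respiratory chain had 10 of 25 tested genes higher in TECs and 0 in PMNs, with a median of 1.56. Cycs (cytochrome c) had 558, 376, 286, 268 and 408 in TECs and 52.3, 62.7, 51.4, 57.1 and 68.7 in PMNs (log2 2.73 ± 0.29, adjusted p = 0.00137), and 25.9% of its stretches are shared. Cox5a, a subunit of complex IV, had 310.5, 426, 207, 298 and 377 in TECs and 68.8, 54.5, 38.2, 70.8 and 77.6 in PMNs (log2 2.41 ± 0.34, adjusted p = 0.00558). In both genes the lowest TEC library was far above the highest PMN library. Cox6c averaged 50.3 ± 20.2 in PMNs and 263 ± 34 in TECs (log2 2.46 ± 0.34, adjusted p = 0.00545), the complex I subunit Ndufb8 averaged 71.1 ± 6.42 in PMNs and 290.5 ± 103 in TECs (log2 2.07 ± 0.30, adjusted p = 0.00605) and Cox4i1 averaged 277 ± 87.2 in PMNs and 908 ± 164 in TECs (log2 1.78 ± 0.27, adjusted p = 0.00805). In the citrate cycle, Fh1 (fumarate hydratase) and Sdhb (succinate dehydrogenase) passed, with 24.5 ± 10.4 in PMNs and 142 ± 52.6 in TECs (log2 2.46 ± 0.47, adjusted p = 0.0223) and 126 ± 19.4 in PMNs and 306 ± 64.6 in TECs (log2 1.32 ± 0.27, adjusted p = 0.0316). Cycs and Cox5a kept their calls with each library left out. Without PMN Control 1 only these 2 of the 10 remained, and calls were lost for Cox6c (adjusted p = 0.0521), Ndufb8 (adjusted p = 0.0646) and Cox4i1 (adjusted p = 0.0667) among others. Fh1 was called in 7 of 10 fits with a library left out (adjusted p up to 0.135). Sdhb lost its call when any PMN library or either TEC Control library was left out (adjusted p up to 0.279).

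Itaconate, arginine and polyamine metabolism had 4 genes higher in PMNs and 1 in TECs among 16 tested, where 2.42% and 1.39% of all genes were. Those higher in PMNs were Acod1, Slc7a11, Nos2 and Smox. Slc7a11, the cystine importer that feeds glutathione synthesis, had 612, 540.3, 369.9, 543 and 709 in PMNs and 25.1, 32.4, 35.5, 37.2 and 54.9 in TECs (adjusted p = 0.000415). Nos2, the inducible nitric oxide synthase, had 97, 90.5, 109.8, 59 and 61.9 in PMNs and 0.434, 1.33, 0, 0 and 0.0445 in TECs (log2 -9.36 ± 0.91, adjusted p = 0.000888). Smox (spermine oxidase) averaged 625 ± 168 in PMNs and 36.8 ± 19.1 in TECs (log2 -3.97 ± 0.45, adjusted p = 0.00188), and Acod1, Slc7a11, Nos2 and Smox were called in all 10 fits. Ass1, which makes argininosuccinate and is a proximal tubule enzyme, averaged 93.4 ± 48.1 in PMNs and 756 ± 637 in TECs (log2 2.93 ± 0.55, adjusted p = 0.0213), shares 38.6% of its stretches with a pseudogene and lost its call without PMN Control 1, PMN Control 2 or PMN RIPC 1 (adjusted p up to 0.0873). Arg1 (arginase 1) had 142, 368, 148, 403 and 0 in PMNs and 0.316, 0, 0.797, 0 and 9.65 in TECs, with a wide spread in PMNs, and did not pass (adjusted p = 0.14).

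Catabolism of amino acids and inositol had 2 of 20 tested genes higher in TECs and 0 in PMNs, with a median of 3.11. Miox (myo-inositol oxygenase), a gene of the proximal tubule, had 625, 637, 664, 299 and 1583 in TECs and 86.1, 38.8, 55.9, 75 and 86 in PMNs (log2 3.44 ± 0.51, adjusted p = 0.00666) and was called with each library left out. Glul (glutamine synthetase) averaged 95.5 ± 24.1 in PMNs and 395 ± 127 in TECs (adjusted p = 0.0123) and lost its call without PMN Control 1 or PMN Control 2 (adjusted p up to 0.0947). Fah (fumarylacetoacetase) averaged 8.08 ± 8.79 in PMNs and 103 ± 37.5 in TECs and did not pass (adjusted p = 0.303).

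Antioxidant and detoxification genes gave the largest share of calls in favor of TECs of the metabolic lists, 14 of 23 tested with 0 in PMNs, where the median log2 difference was 1.86 against 0.106 over all genes tested. Gpx3, the plasma glutathione peroxidase that proximal tubules secrete, had 33261, 25505, 22160.3, 14131 and 53987 in TECs and 1327, 1711, 1540.4, 1692 and 1377 in PMNs (log2 4.28 ± 0.40, adjusted p = 0.00069). Per length, it averaged 9506 TPM in TECs and 629 TPM in PMNs. Prdx1 had 2894, 3089.9, 2087, 1703 and 1156 in TECs and 157, 229.6, 271, 325 and 138 in PMNs (log2 3.35 ± 0.33, adjusted p = 0.000941). The glutathione transferase gene Gsta2 averaged 19.4 ± 13.9 in PMNs and 527 ± 114 in TECs (log2 5.00 ± 0.48, adjusted p = 0.000835) and shares 49.8% of its stretches with Gsta1 and others. Cat (catalase) averaged 59.2 ± 13.1 in PMNs and 344 ± 125 in TECs (log2 2.54 ± 0.33, adjusted p = 0.00378). Gclm and Gclc, the 2 subunits of the enzyme that limits glutathione synthesis, averaged 29.7 ± 23.8 in PMNs and 151 ± 108 in TECs (log2 3.10 ± 0.40, adjusted p = 0.00397) and 14.6 ± 10.1 in PMNs and 142 ± 47.6 in TECs (log2 3.44 ± 0.56, adjusted p = 0.0106). Srxn1, whose promoter is shown above, had 289, 288, 209, 72.3 and 71.5 in TECs and 11.7, 56.1, 4.05, 0.706 and 0.784 in PMNs (log2 4.54 ± 0.79, adjusted p = 0.0152). Gpx3, Prdx1, Gsta2, Cat and Gclm were called with each library left out, and calls were lost for Srxn1 without PMN Control 1 (adjusted p = 0.0628) and for Gclc without PMN Control 1 or PMN Control 2 (adjusted p up to 0.0639). Over the 10 fits between 6 and 14 of the 14 calls were kept, with 6 without PMN Control 1.

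Of the members that did not pass, some lay on the side of PMNs. Gsr (glutathione reductase) averaged 837 ± 422 in PMNs and 286 ± 106 in TECs and missed the threshold (log2 -1.28 ± 0.31, adjusted p = 0.0546), except without TEC RIPC 2 (adjusted p = 0.0454). Hmox1 (heme oxygenase 1), an NRF2 target like Gclm and Srxn1, averaged 719 ± 314 in PMNs and 288 ± 342 in TECs and did not pass (log2 -1.33 ± 0.70, adjusted p = 0.355), except without TEC RIPC 3 (adjusted p = 0.00606). The ferritin heavy chain Fth1 was abundant in both, with 14960.0 ± 3252 in PMNs and 17540.0 ± 6963 in TECs (adjusted p = 0.544).

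**Figure D5:**
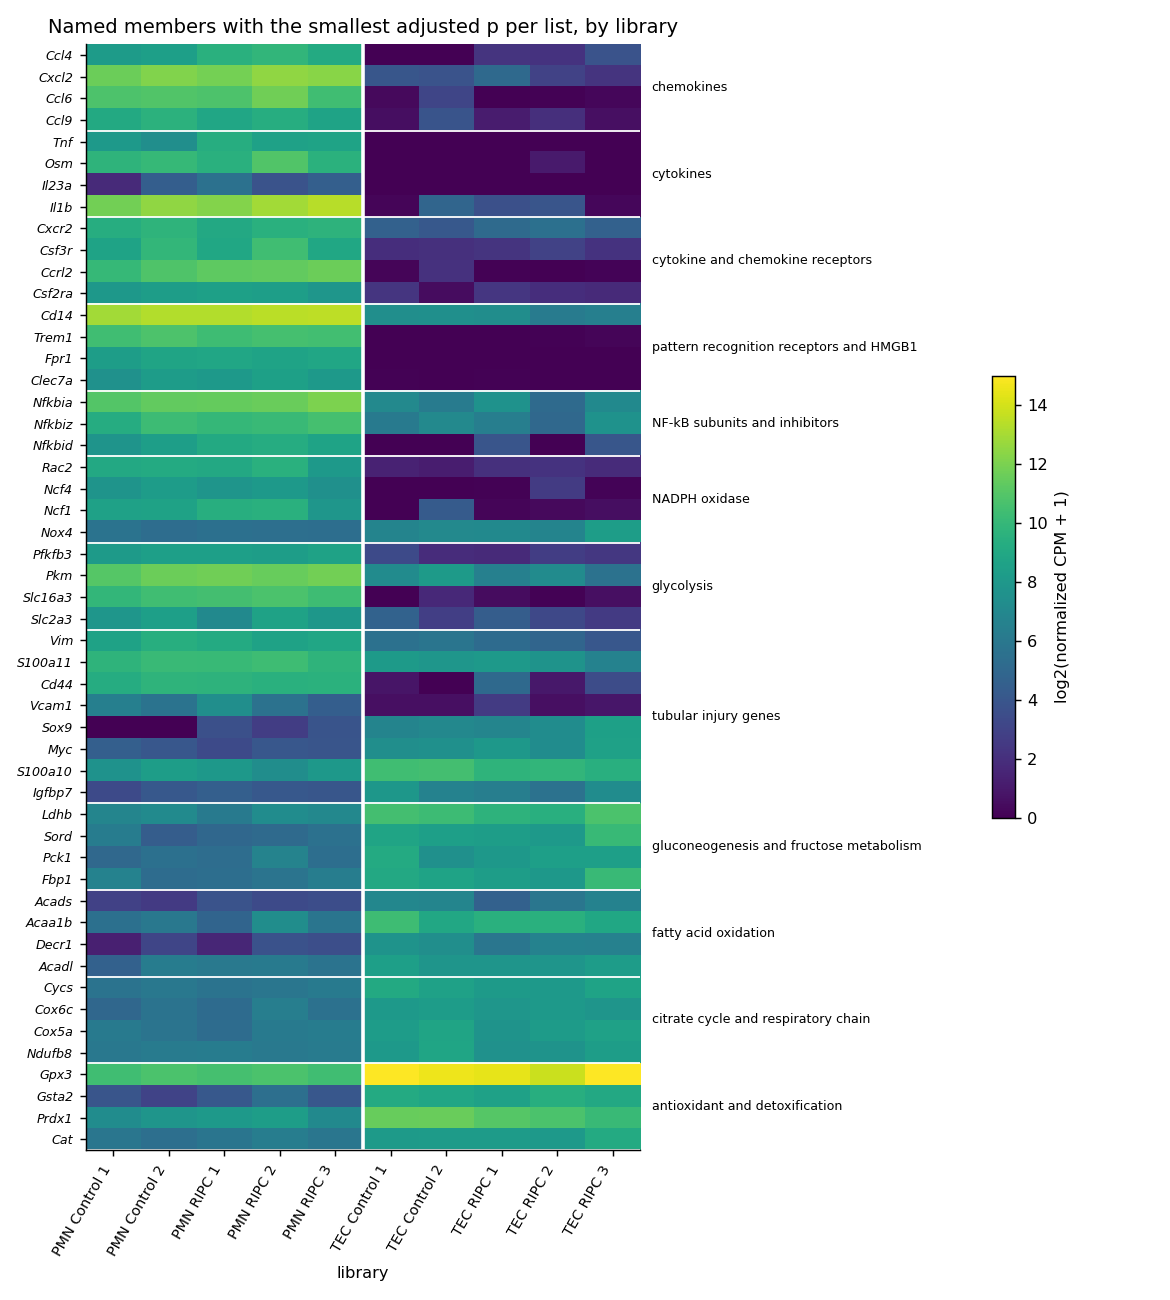
Levels of named list members with the smallest adjusted p-values per list in each of the 10 IRI libraries, as log2 of normalized CPM plus 1, with PMN libraries on the left and TEC libraries on the right. Rows of the inflammatory lists, the phagocyte oxidase and glycolysis are brighter on the left (Nox4 excepted) and rows of the gluconeogenesis, mitochondrial and antioxidant lists on the right, and Gpx3 in TECs and Cd14, Il1b and Cxcl2 in PMNs are among the brightest rows.

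Genes that the study is about besides those above were Cxcr4, Tlr5, Sema5b and Plxna1. Cxcr4, a chemokine receptor that also binds HMGB1 complexes, had 85.4, 71, 70, 89.4 and 36.6 in PMNs and 1.58, 0, 0.0362, 1.28 and 0 in TECs without overlap and was not called (log2 -6.91 ± 1.71, adjusted p = 0.0654), except without TEC RIPC 2 (adjusted p = 0.0166). Tlr5 was too low to be tested, with 0 reads in all TECs and 0.0781, 5.35, 0, 0.0342 and 0 in PMNs in plain CPM. Sema5b, a semaphorin, had 1.38, 0, 14.2, 2.57 and 1.56 in TECs and 0.0414, 0, 0.556, 0 and 0 in PMNs, so that its TEC level came mostly from TEC RIPC 1 (adjusted p = 0.307). Its receptor Plxna1 had 30, 0.267, 16.2, 0.803 and 43.4 in TECs and 0, 24.4, 0.874, 0 and 8.42 in PMNs (adjusted p = 0.799). Of 17 tested semaphorins, plexins and neuropilins, 1 (5.88%) passed, near the 3.81% of all genes tested. This was Sema4a in favor of PMNs, with 158 ± 87 in PMNs and 6.03 ± 6.31 in TECs (log2 -4.72 ± 1.06, adjusted p = 0.0443), and it lost its call without PMN Control 1, PMN Control 2, PMN RIPC 1, PMN RIPC 2, TEC Control 1 or TEC RIPC 1 (adjusted p up to 0.113).

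The cell type difference was also read within each treatment. In Control mice 180 genes (0.690% of genes tested) were called, 48 higher in TECs (0.184%) and 132 in PMNs (0.506%), while 2392 (9.17%) reached p under 0.05 without adjustment. In RIPC mice 452 (1.73%) were called, 119 higher in TECs (0.456%) and 333 in PMNs (1.28%), while 3394 (13.0%) reached it without adjustment. With 3 libraries per cell type for RIPC and 2 for Control, the counts of the treatments are not comparable. Of the genes called in Control mice 153 were also called in RIPC mice in the same direction, which is 85% of the first and 33.8% of the second, and all 180 and 441 of the 452 were among the 993 of the mean contrast. Without 1 library the Control count was between 86 and 102 for 7 libraries, PMN Control 1, PMN Control 2, PMN RIPC 1, PMN RIPC 2, PMN RIPC 3, TEC Control 1 and TEC Control 2, and it was 270, 294 and 269 without TEC RIPC 1, 2 and 3. The RIPC count was 206, 211 and 237 without PMN RIPC 1, 2 and 3, and between 332 and 529 without each other library. With total-count scaling the RIPC calls split into 197 higher in TECs and 289 in PMNs, which is 40.5% in TECs against 26.3% with TMM. Of the 993 genes, 990 had the same sign in both treatments. A test of the difference between RIPC and Control called 1 gene (0.00383%), and 1673 genes (6.41%) had an unadjusted p-value under 0.05. That gene was Ctss, with 0 reads in both TEC Control libraries and 20.1, 12.8 and 9.03 in the TEC RIPC libraries, against 1228, 1225, 1663, 1359 and 1259 in PMNs (adjusted p = 0.0239). With a library left out, 0 genes passed without PMN RIPC 1, PMN RIPC 2, PMN RIPC 3, TEC Control 2 or TEC RIPC 2, and between 1 and 5 without each of the other libraries. Cxcl2, Acod1, Krt20, Havcr1 and Spp1 did not pass this test (adjusted p between 0.754 and 1).

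Whether the difference between the cell types was larger or smaller after IRI than after sham surgery was tested over all 21 libraries and 31769 genes. By edgeR 0 genes passed, 3102 (9.76%) had an unadjusted p-value under 0.05, and the Wald test of DESeq2 called 2395. The count rested on single libraries and reached 124 without PMN Sham Control 1, 41 without PMN Sham RIPC 2 and 22 without PMN Sham RIPC 1 or without TEC Sham Control 1. In sham PMNs Cxcl2 averaged 553 ± 159 (n = 5) and in sham TECs 0.0524 ± 0.0454 (n = 6), where on the same scale the IRI libraries had 4683 ± 1189 and 15.1 ± 12.4. The fitted difference between TECs and PMNs after IRI minus that after sham surgery was a log2 of 5.01 ± 0.86 and did not pass (adjusted p = 0.0645). As the contrast is TEC minus PMN, a positive value here means a smaller excess in PMNs after IRI than after sham surgery. It rests on a sham TEC level below 0.123, the mean CPM of 3 reads in an IRI TEC library. For Vim the levels were 1.91 ± 2.88 in sham TECs and 160.0 ± 119.6 in sham PMNs, and it did not pass either (log2 6.41 ± 1.13, adjusted p = 0.0645), again with the smaller excess in PMNs after IRI. Acod1 averaged 146 ± 96.2 in sham PMNs, from 84.5 to 316, and had 0 reads in sham TECs, so that the groups did not overlap.

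In sham TECs Krt20 ranged from 0 to 15.9 and Havcr1 from 0 to 78.9, below all TEC libraries after IRI for Krt20 and overlapping them for Havcr1. Spp1 ranged from 992 to 9417 in sham TECs and from 257 to 1676 in sham PMNs. None of these 3 passed the test of the difference (adjusted p between 0.42 and 1). Of kidney transcripts in PMNs, Kap ranged from 897 to 7772 in sham PMNs and from 324 to 611 in IRI PMNs, without overlap.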

How the data were processed

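Sorted PMNs and TECs were the source of RNA, which was copied into full-length cDNA by poly(A) priming and template switching and read from 1 end. The authors trimmed reads with Trim Galore 0.6.4 and quantified them with Salmon 1.0.0 on Gencode mouse transcripts. The deposited values used were Salmon's raw estimated counts of transcripts and the deposited TPM values, which Salmon scales by length and depth, for levels between genes. Each library came as 2 files whose difference the sources used here do not state, and the estimated counts of both were added.

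Estimated counts were summed per gene with Gencode M21 of GRCm38, which matched 139864 of 140748 transcripts, where the methods name vM23, and rounded. Unmatched transcripts held 0.139% to 0.196% of the reads of an IRI library. Following the study's methods, mitochondrial genes and those of the sex chromosomes did not enter the test. For X-linked genes the log2 difference and p-value are from a fit that included them, and the levels are plain CPM. The kit is not described as strand-specific, so reads of overlapping antisense genes cannot be told apart. The share of 50-base stretches of each gene that also occur in another gene was computed from the annotated transcripts.

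The 10 IRI libraries were compared with edgeR 4.0.16 by quasi-likelihood (with limma 3.58.1 under R 4.3.3), with 1 mean per group, TMM scaling, filterByExpr and a Benjamini-Hochberg adjusted p-value under 0.05. The contrast was the mean of both TEC groups minus the mean of both PMN groups. SE is the log2 difference divided by the square root of F. A gene with 0 reads in a cell type is given as a bound at 3 reads per library. DESeq2 1.42.0 and apeglm 1.24.0 were alternatives, with scaling, filters, single files, length, the replicate number and left-out libraries. Tables were handled in Python 3.11.15 (pandas 2.3.3) and drawn with matplotlib 3.10.9.

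The members and the gene lists were chosen with earlier results of these data known. Genes named are the 5 markers, up to 5 members of each list in either direction, ranked by adjusted p among those whose libraries do not overlap, members of central role that did not pass, the 5 top-ranked genes in each direction, and genes the study is about. Fgg, Gclm, Kap, Nox4 and other members that overlap or rank lower were named after their values were seen. Some members are not reported here.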

Additional observations from a re-analysis of the deposited data

Results flagged for a closer look

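In 4 of 24 groups of 5 libraries tested for a library far from the others, the gap to the nearest library exceeded 0.71 of the range. Chance gives about 1 in 20 for normally distributed values. These were untransformed levels, for which that rate need not hold. Acod1 was 2.82 in TEC RIPC 1 and between 0 and 0.0889 in the other TEC libraries. Krt20 was 101.5 in PMN RIPC 1 and between 0.457 and 29.7 in the other PMN libraries. Spp1 was 5594 in PMN Control 2 and between 601.5 and 1853 in the other PMN libraries. The summed proximal tubule markers were 10812 in TEC RIPC 3 and between 3184 and 4666 in the other TEC libraries. The difference between TECs and PMNs in Ctss was larger in Control than in RIPC mice by a log2 of 11.2 in edgeR's interaction test (adjusted p = 0.0239), a value that depends on the 0 reads of both TEC Control libraries.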

How the results depend on the processing

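With 1 library left out, between 575 and 1031 genes were called in the main comparison, against 993 with all 10 libraries. That range was 86 to 294 for the 180 calls in Control mice, 206 to 529 for the 452 calls in RIPC mice, 0 to 5 for the difference between RIPC and Control, and 0 to 124 for the difference between IRI and sham surgery. With no filter on low counts the 5 counts, in the order of that list, were 1779, 620, 1119, 38 and 722, and with the Wald test of DESeq2 3618, 2098, 2485, 707 and 2395. With apeglm 3217 genes passed in the main comparison, and with a fold over 2 tested (glmTreat) 608. For the difference between RIPC and Control the count was 0 with total-count scaling and 2 with a length offset. For the difference between IRI and sham surgery it was 5 with a mean of at least 1 CPM, 5 with robust dispersion, and 1 with the first and 1 with the second file of each library alone. DESeq2's size factors, the all-library fit, cell type as the only term and the inclusion of sex chromosomes kept the main count within 1.5 times of 993. Single genes moved more: of 97 named genes called in the main fit and followed over the other fits, 14 lost their call in the all-library fit. With cell type as the only term 10 did, and with the replicate number as a block 19. The cause of these shifts was not tested.

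With the replicate number as a block, 636 genes passed in the main comparison, 30 in Control mice, 210 in RIPC mice and 0 for the difference between RIPC and Control. The labels do not say that a number pairs a PMN with a TEC library. Same-numbered libraries had correlations of their deviations from the group means between -0.0188 and 0.0201. The RIPC but not the Control libraries of PMNs correlated best with their own number. In groups of 2 libraries the deviations mirror each other, so both Control correlations are the same -0.0188 by construction. Correlations this near 0 cannot decide whether the numbers are pairs. The main fit left the numbers out because the labels name no pairs.

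Timp2, not called, turned from below to above 0, to log2 0.106 with total counts, and with 1 library left out to between 0.0703 and 0.525, with -4.21 as the lowest value without TEC RIPC 1. Plxna1 turned to -1.40 without TEC Control 1 and reached 7.12 without PMN Control 2. The limits are the small groups, the common coefficient of variation of 1.54, and tubule and macrophage transcripts in the PMN libraries.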

Other observations

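Apart from macrophages and monocytes, the lists of other blood and kidney cell types had at most 1 call each. Over all genes tested, 2.42% were higher in PMNs and 1.39% in TECs. In lists this short, 1 call cannot be told from those shares. Of 13 tested lymphocyte markers 1 was higher in PMNs, Ighm, the heavy chain of IgM (17.8 ± 10.9 in PMNs and 0.0356 ± 0.0795 in TECs, adjusted p = 0.0314), and it lost its call without PMN Control 1, PMN RIPC 1, PMN RIPC 2, PMN RIPC 3, TEC Control 1 or TEC Control 2 (adjusted p up to 0.117). Of 7 tested erythrocyte and platelet markers 1 was, the platelet factor gene Pf4, with 0 reads in TECs and at least 832-fold higher in PMNs (adjusted p = 0.00334). Of 12 endothelial and stromal markers 0 were called in either direction, and of 14 distal tubule and collecting duct markers 1 was higher in TECs.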
